A study of Arabidopsis thaliana with 10 samples.

Results

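Arabidopsis pollen was examined for the small RNAs of 6 microRNA genes, MIR159A (AT1G73687), MIR159B (AT1G18075), MIR159C (AT2G46255), MIR319A (AT4G23713), MIR319B (AT5G41663) and MIR319C (AT2G40805). They were chosen by gene ID and are 6 of 33271 genes with signal and 6 of 177 microRNA genes. All 6 had signal in each of 10 small RNA libraries. The libraries formed 5 groups of 2, all in the Col-0 ecotype and from plants kept under 16 h of light per day. Col-0 pollen was untransformed. VC-RTL1 pollen carried pLAT52::RTL1-Myc, in which the LAT52 promoter drives the RNase III-like protein RTL1 in the late microspore and then mainly in the vegetative cell. SC-RTL1 pollen carried pMGH3::RTL1-Myc, with a promoter active in the male germline and the sperm cells it forms. WT FTL and nrpd1a-3 FTL pollen came from plants heterozygous both for a pLAT52::DsRed reporter and for the nrpd1a-3 allele of the largest Pol IV subunit, and was separated by fluorescence into DsRed positive grains (WT FTL) and DsRed negative, mutant grains (nrpd1a-3 FTL). The replicates of a construct were independent transgenic lines. The labels and the paper call the other replicates biological. The labels do not say how they were separated, so what the spread between them covers is not known.

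Plant microRNAs are cut by DICER-LIKE 1 from a folded hairpin transcript and guide ARGONAUTE proteins to mRNAs with a nearly complementary site. miR159 represses GAMYB-like MYB transcription factors such as MYB33 and MYB65, and its sites also occur in MYB97, MYB101 and MYB120, which act in the pollen tube, and in DUO1, the regulator of sperm cell formation. miR319 is related in sequence but represses class II TCP factors, which limit cell proliferation in leaves. RTL1 cleaves long double-stranded RNA and was used in the study to block siRNA formation, and Pol IV makes the precursors of 24-nt siRNAs.

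The mature sequences show how the members are related and which of their reads can be told apart. They were read from the RefSeq annotation of assembly TAIR10.1 and are given 5′ to 3′ with bases 2 to 8, the seed, in capitals.
miR159a: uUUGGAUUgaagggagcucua
miR159b-3p: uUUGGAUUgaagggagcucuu
miR159c: uUUGGAUUgaagggagcuccu
miR319a: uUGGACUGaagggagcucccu
miR319b: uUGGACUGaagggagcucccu
miR319c: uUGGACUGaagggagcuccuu
The 3 MIR159 RNAs share the seed UUGGAUU and the 3 MIR319 RNAs share the seed UGGACUG. Counted from 1 at the 5′ end, miR159a differs from miR159b-3p by A21U and from miR159c by U20C and A21U. The RNAs of MIR319A and MIR319B are identical over all 21 bases, and miR319c differs from them by C20U. Every difference within a family thus lies in the last 2 bases. The 18-nt and 19-nt forms that start at the mature 5′ end therefore occur in 3 places of the genome, once in each hairpin of the family. At 20 nt the form is shared by MIR159A and MIR159B and is unique to MIR159C. At 21 nt all MIR159 forms are unique, whereas MIR319A and MIR319B still share theirs and become unique at 22 nt.

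The hairpins lie on 4 chromosomes of TAIR10.1 as separate noncoding genes, and none overlaps another annotated gene. MIR159A is at chr1:27713233-27713416 on the minus strand and MIR159B at chr1:6220646-6220841 on the plus strand. MIR159C is at chr2:18994632-18994856 and MIR319C at chr2:17029701-17029899, both on the plus strand. MIR319A is at chr4:12352956-12353131 on the plus strand and MIR319B at chr5:16660469-16660640 on the minus strand. Below are the hairpins of MIR159B and MIR319B, shown because MIR159B gave a 22-nt class and MIR319B RNAs of 23 nt and more in every library, with the annotated mature RNAs in capitals.
MIR159B hairpin: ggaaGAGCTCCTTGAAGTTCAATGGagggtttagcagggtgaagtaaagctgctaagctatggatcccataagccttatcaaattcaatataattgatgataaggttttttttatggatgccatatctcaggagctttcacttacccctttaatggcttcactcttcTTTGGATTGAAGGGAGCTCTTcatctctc
MIR319B hairpin: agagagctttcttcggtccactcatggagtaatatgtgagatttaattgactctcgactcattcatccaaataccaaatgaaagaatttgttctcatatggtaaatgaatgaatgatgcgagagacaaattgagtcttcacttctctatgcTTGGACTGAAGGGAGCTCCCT
MIR159B is annotated with an RNA on each arm, miR159b-5p near the start and miR159b-3p near the end. The annotated MIR319B gene ends with the last base of miR319b, so a longer RNA with the same start would run past it. Whether reads that run past the annotated end were counted is not given in the sources used here, and its values at 22 nt and more carry that doubt.

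The values are signal as the authors deposited it, in RPM per gene and RNA length, with each read divided by the number of places in the genome that it matches. A read with a single match was worth 0.430 to 1.46 units, and 4296912 to 10349598 such hit-weighted reads per library lay on genes. MicroRNA genes held 17.1% to 24.9% of the signal in the 6 unsorted libraries and 4.01% to 14.4% in the 4 sorted ones. MIR845a alone made up 20.6% to 61.2% of microRNA signal. Summed signal on markers of the vegetative cell (VGD1, SKS13 and AT3G01270) was 5756 to 17644 in unsorted and 4784 to 13899 in sorted pollen. For sperm cell markers (MGH3, GCS1, GEX2 and DUO1) the sums were 41.6 to 92.5 and 30.3 to 60.6. Leaf markers (RBCS1A, RBCS1B, CAB1 and CAB3) summed to 119 to 381 in unsorted and 14.1 to 206 in sorted pollen, with all 4 above 0 in every library. Fewer cells of a type and less RNA per cell cannot be told apart in these pools of grains. In the constructs, an effect of RTL1 on these small RNAs cannot be told apart from either.

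MIR159A was the leading member in every library. Its signal was 2137 and 2250 in Col-0, 2819 and 1084 in VC-RTL1, 5943 and 5334 in SC-RTL1, 952 and 481 in WT FTL, and 1279 and 1154 in nrpd1a-3 FTL. Both SC-RTL1 libraries stood above the other 8, and both WT FTL libraries lay below the rest. The group means were 2194 ± 79.7 in Col-0, 1952 ± 1227 in VC-RTL1, 5639 ± 431 in SC-RTL1, 716 ± 333 in WT FTL, then 1216 ± 88.8 in nrpd1a-3 FTL (SD, n = 2 throughout). MIR159A ranked between 24 and 53 among microRNA genes and held 0.0740% to 0.421% of their signal.

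MIR159B was below MIR159A in every library. MIR159B signal was 364 and 474 in Col-0, 590 and 301 in VC-RTL1, 1415 and 988 in SC-RTL1, 250 and 86.8 in WT FTL, and 352 and 97.9 in nrpd1a-3 FTL pollen. Both SC-RTL1 libraries were again the highest. Compared at 21 nt, where the mature RNAs have equal length and a single place in the genome each, the signal of MIR159A was 6.25 to 28.2 times that of MIR159B. The highest ratio came from replicate 2 of nrpd1a-3 FTL, and the other 9 libraries lay between 6.25 and 11.8.

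MIR159C was listed at 34.8 and 54.9 in Col-0, 34.6 and 18.1 in VC-RTL1, 150 and 91.5 in SC-RTL1, 32.0 and 13.3 in WT FTL, and 49.0 and 8.04 in nrpd1a-3 FTL pollen. Nearly all of it was made of short reads that the 3 MIR159 hairpins share. Reads of 18 and 19 nt were 91.7% to 100% of its total, and of 543 hit-weighted reads in all libraries together 530 had these lengths. Only 13 reads were of 20 nt or more, where the mature RNA becomes its own, and 5 of the 10 libraries had 0 of them, which allows up to 3 reads per library, or 1.29 to 3.62 units of signal in these 5. Each shared 18-nt or 19-nt read adds an equal part to all 3 genes. The 3 values at 19 nt differed by at most 4 reads and lay within 10% of each other in 9 of 10 libraries, and at 18 nt they differed by at most 9 reads and lay within 10% in 5 of 10. The listed signal of MIR159C therefore cannot be told apart from shorter RNAs of MIR159A and MIR159B.

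MIR319A signal was 262 and 958 in Col-0, 743 and 768 in VC-RTL1, 1084 and 1181 in SC-RTL1, 65.3 and 81.1 in WT FTL, and 119 and 54.2 in nrpd1a-3 FTL pollen. MIR319B, which carries the same mature RNA, had 234 and 591, 678 and 758, 801 and 727, 65.3 and 208, and 144 and 234 in the same order. For MIR319C the values were 103 and 291 in Col-0, 245 and 374 in VC-RTL1, 279 and 300 in SC-RTL1, 20.9 and 17.3 in WT FTL, and 55.0 and 39.1 in nrpd1a-3 FTL pollen. Since MIR319A and MIR319B split the reads of their common RNA evenly, their values are not independent. All 3 genes had more signal in Col-0 replicate 2 than in replicate 1, and the replicates of either construct were closer to each other than those of Col-0. Every sorted library lay below every unsorted one for MIR319A and MIR319C. MIR319B missed this by a single pair, 234.5 in nrpd1a-3 FTL replicate 2 and 233.9 in Col-0 replicate 1.

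**Figure D1:**
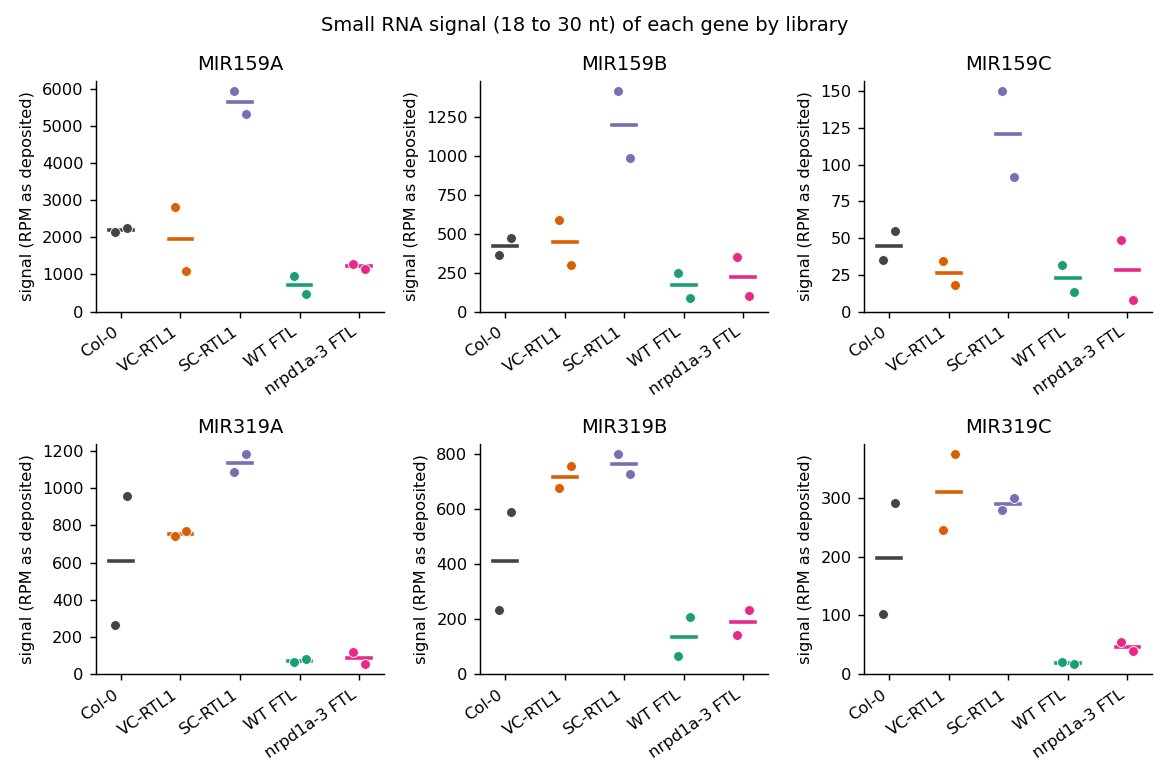
Signal of each of the 6 genes (vertical axis, RPM as deposited, 18 to 30 nt summed) in the 5 groups. Points are the 2 libraries of a group, replicate 1 on the left, and bars are their mean. SC-RTL1 is highest for the 3 MIR159 genes, while VC-RTL1 and SC-RTL1 overlap for MIR319B and MIR319C.

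The genes differed in the lengths of the RNAs assigned to them. MIR159A was almost wholly 21 nt long, at 89.6% to 95.2% of its signal, and 22-nt RNAs were at most 0.00176 times as abundant. MIR159B, with a nearly identical mature RNA, gave 39.7% to 59.7% of its signal at 21 nt. That share depends on reads of 18 to 20 nt, whose mature forms are split evenly between the genes that carry them. Such reads numbered 34 to 397 on MIR159A and 29 to 356 on MIR159B. They made up 4.77% to 10.2% of the reads of MIR159A but 15.8% to 42.5% of those of MIR159B. MIR159B also had a distinct 22-nt class, a length at which its mature form is unique. Its 22-nt reads numbered 200 and 54 in Col-0, 230 and 90 in VC-RTL1, 223 and 150 in SC-RTL1, 65 and 12 in WT FTL, and 64 and 25 in nrpd1a-3 FTL pollen. The ratio of 22-nt to 21-nt signal on MIR159B was 0.236 to 0.520 in unsorted and 0.349 to 0.431 in sorted pollen, so the sorted libraries fell inside the unsorted range. In no library did MIR159A have more than 5 reads of 22 nt. The MIR319 genes had 22-nt RNAs as well, with 40 to 160 reads on MIR319A, 31 to 107 on MIR319B and 7 to 43 on MIR319C in unsorted pollen. Relative to 21-nt signal they were 0.0787 to 0.220, 0.0917 to 0.153 and 0.0279 to 0.118, all below the lowest MIR159B ratio of 0.236 there. In sorted pollen they numbered 0 to 17, 7 to 44 and 1 to 13 reads. At 21 nt MIR319A and MIR319B split the reads of a common RNA evenly. The ratios of MIR319A and MIR319B depend on that split, which the MIR159B ratio does not.

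MIR319C resembled MIR159A, with 80.1% to 93.5% of its signal at 21 nt in unsorted pollen. In sorted pollen that share was 47.9% to 87.4%, over only 14.3 to 58.3 reads per library. MIR319B stood out by RNAs of 23 nt and more. They were 13.8% and 6.06% of its signal in Col-0, 12.2% and 8.56% in VC-RTL1, 7.41% and 6.23% in SC-RTL1, 13.3% and 30.2% in WT FTL, and 17.5% and 38.6% in nrpd1a-3 FTL pollen. The 2 highest shares were those of replicate 2 in both sorted groups, with 49 and 111 reads of 23 nt, and the sorted groups overlapped. MIR319A, which shares the 21-nt form, had at most 3.07% of its signal at 23 nt and more. The shares of both genes depend on the even split of that form. The deposited values carry no position, so where in the hairpin these longer RNAs lie was not analysed here.

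**Figure D2:**
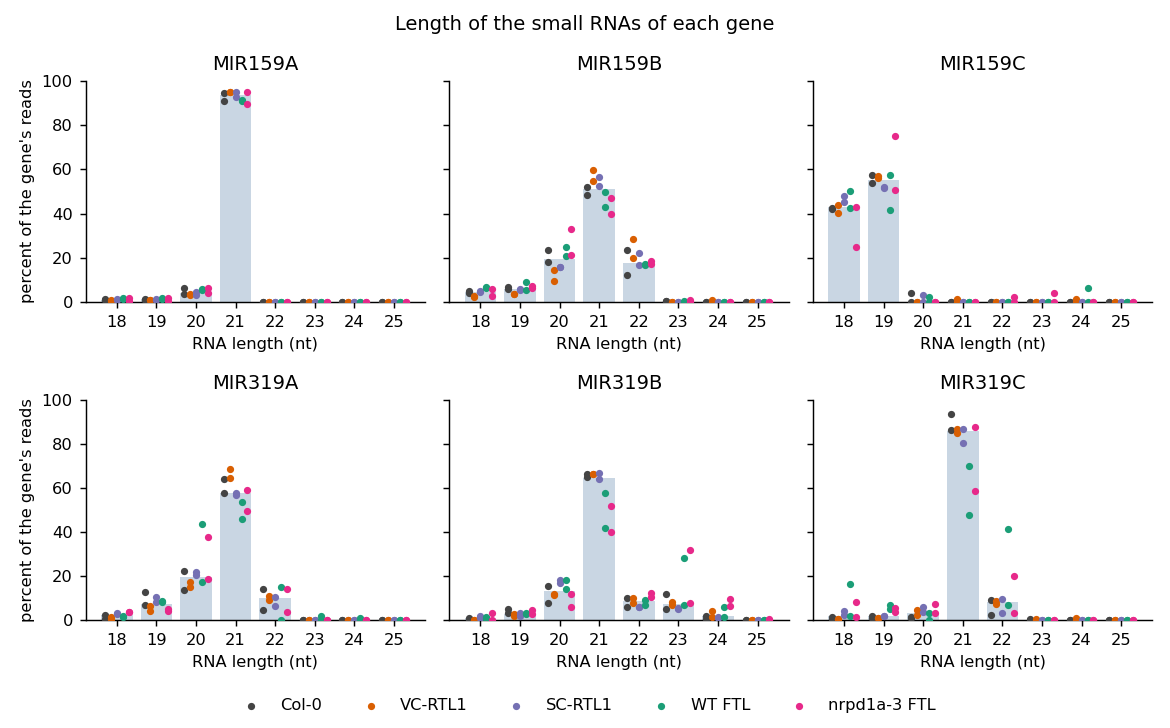
Share of each gene's hit-weighted reads (vertical axis, percent) by RNA length (horizontal axis, nt). Bars are the median of the 10 libraries and points the single libraries, coloured by group. MIR159A and MIR319C peak at 21 nt, MIR159B has a 22-nt class, MIR159C has only 18-nt and 19-nt RNAs in quantity, and MIR319B extends to 23 and 24 nt.

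The study set each construct against Col-0 to learn what RTL1 does to pollen small RNAs, and the same is asked here of the 6 genes. Values of log2(signal + 1) from the 6 unsorted libraries were fitted with limma over the 11585 loci that averaged 12 or more reads a library, and p-values were adjusted over all of them (Benjamini-Hochberg, two-sided, threshold 0.05). All 6 genes passed the filter.

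In VC-RTL1 against Col-0 pollen no member of either family was called. The log2 differences were -0.33 (SE 0.43) for MIR159A, 0.02 (SE 0.36) for MIR159B and -0.78 (SE 0.39) for MIR159C, and 0.59 (SE 0.51), 0.94 (SE 0.40) and 0.80 (SE 0.45) for MIR319A, MIR319B and MIR319C. By limma, 0 of 6 passed (the lowest adjusted p, that of MIR319B, was 0.250) and 1 was under the threshold unadjusted, while over all loci 1.63% were called raised and 0.155% reduced. Unadjusted, 1400 of the 11585 loci were raised and 788 reduced under the same threshold. Groups did not overlap for MIR319B, higher in VC-RTL1 (32.1% of loci and 63.6% of 143 microRNA genes were). Nor did they for MIR159C, lower in VC-RTL1 (20.5% of loci and 11.9% of microRNA genes). Its nearest values were 34.85 in Col-0 replicate 1 and 34.60 in VC-RTL1 replicate 1. A single read was worth 0.430 and 0.504 there, so the groups nearly touched. The 137 other microRNA genes tested had a median of 0.78, with 11 raised and 2 reduced, and the 6 members a median of 0.31. Without Col-0 replicate 2, MIR319A, MIR319B and MIR319C were called raised at log2 1.52, 1.61 and 1.55 (limma adjusted p = 0.00677, 0.00638 and 0.0146), and so were 6.21% of all loci in that fit. With 1 Col-0 library left, it is assumed to vary like the libraries of the other groups. The sign of MIR159B turned under all 5 other scalings.

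SC-RTL1 pollen had higher MIR159 signal than Col-0 pollen without passing the test. The difference was 1.36 on the log2 scale for MIR159A (SE 0.43, limma adjusted p = 0.130), 1.51 for MIR159B (SE 0.36, adjusted p = 0.0717) and 1.40 for MIR159C (SE 0.39, adjusted p = 0.104). On the log2(signal + 1) scale these are 2.57, 2.84 and 2.64-fold. Under 4 of 5 other scalings, all but the median ratio, the log2 differences were 0.56 to 0.77 for MIR159A, 0.71 to 0.92 for MIR159B and 0.62 to 0.82 for MIR159C. Leaf marker sums were also higher in SC-RTL1, at 381 and 325 against 119 and 290 in Col-0, and stood above the other 8 libraries, and their part in the difference was not tested. MIR319A, MIR319B and MIR319C differed by 1.17, 1.04 and 0.74 (SE 0.51, 0.40 and 0.45, limma adjusted p = 0.228, 0.184 and 0.371). Of the 6 genes 0 were called and 4 had an unadjusted limma p under the threshold (0 when scaled to summed signal, to microRNA genes or to mapped reads), beside 0.475% of all loci called raised and 0.958% reduced. Both SC-RTL1 libraries lay above both Col-0 libraries for 5 of 6 genes, all but MIR319C, as they did for 29.3% of loci and 73.4% of 143 microRNA genes. MIR319C turned sign under 2 of 5 other scalings. The median over the members was 1.27, that of the 137 other microRNA genes 0.93 and that of all loci 0.08. Without Col-0 replicate 2 the log2 differences were 1.70 for MIR159B, 1.72 for MIR159C, 2.10 for MIR319A, 1.70 for MIR319B and 1.48 for MIR319C. The median over the 6 members was then 1.70, and without Col-0 replicate 1 it was 0.72. In both fits the lone Col-0 library is assumed to vary like the other groups.

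The constructs compared with each other gave the only call of a member among the 4 comparisons as fitted without a replicate block. MIR159C was higher in SC-RTL1 than in VC-RTL1 pollen by 2.18 on the log2 scale (SE 0.39, 95% interval 1.28 to 3.08, limma adjusted p = 0.0246, both libraries above both). It is called from the short reads shared with its relatives, which differed in the same direction without passing. MIR159A differed by 1.69 (SE 0.43, limma adjusted p = 0.0760) and MIR159B by 1.49 (SE 0.36, limma adjusted p = 0.0652), 3.22 and 2.80-fold. Counted at 21 nt alone, where the mature RNAs of the 3 genes are distinct, MIR159A was called at 1.67 (limma adjusted p = 0.0107), beside 7.81% of 2919 loci called raised at that length and a median of 0.63 over them. The call of MIR159C was lost on leaving out any library of either construct (limma adjusted p = 0.0716 to 0.230). Over all loci 1.05% were called raised in SC-RTL1 and 2.49% reduced. Small RNAs on marker genes differed as well. The paper reports that VC-RTL1 pollen lost siRNAs of genes expressed mainly in the vegetative cell, and SC-RTL1 pollen those of genes expressed mainly in sperm cells. Sums of such markers therefore do not measure cell content alone. Leaf marker sums were 381 and 325 in SC-RTL1 against 167 and 299 in VC-RTL1. Vegetative cell marker sums were 17644 and 13704 against 6855 and 6891, and sperm cell marker sums 59.9 and 41.6 against 69.8 and 92.5. The constructs did not overlap in any of these sums. Of the single genes GCS1, GEX2, RBCS1A and CAB3 did overlap, and the other markers did not. GCS1, for example, was at 30.8 and 11.7 in SC-RTL1 against 25.2 and 27.7 in VC-RTL1. The part of the marker sums in the MIR159 differences was not tested.

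MIR319 did not show such a difference between the constructs. The 95% intervals were -0.59 to 1.76 for MIR319A, -0.82 to 1.00 for MIR319B and -1.10 to 0.97 for MIR319C, around log2 differences of 0.58, 0.09 and -0.06. These intervals do not show that the constructs act alike, and the signs of MIR319A and MIR319B turned under 1 and 4 of 5 other scalings. Groups did not overlap for 4 of 6 genes, the MIR159 genes and MIR319A, higher in SC-RTL1. The same held for 28.9% of loci and 49.0% of 143 microRNA genes. The 137 other microRNA genes tested had a median of 0.29 between the constructs, with 10 raised and 0 reduced, and the 6 members a median of 1.03.

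**Figure D3:**
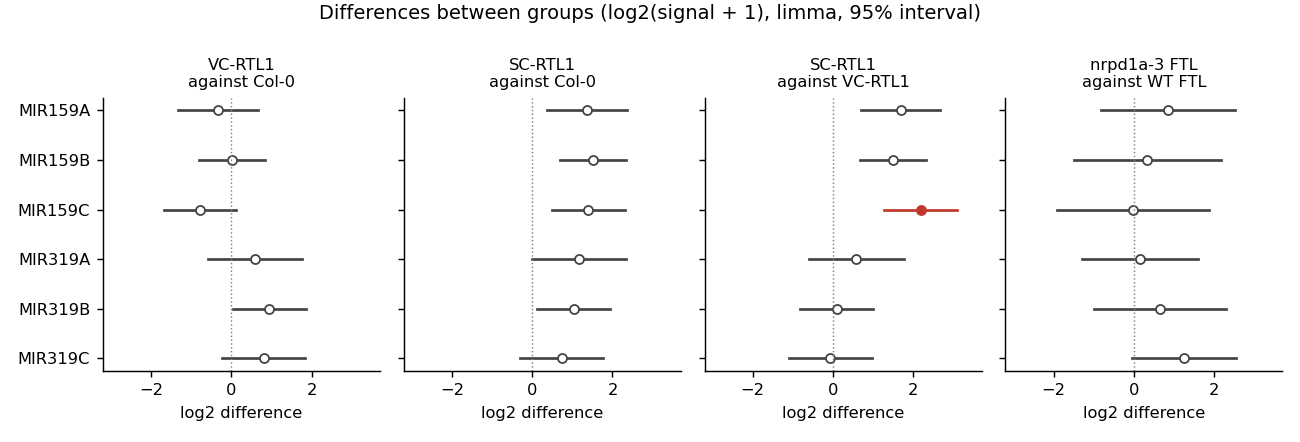
Log2 difference of each gene (horizontal axis, on log2(signal + 1)) in the 4 comparisons, with 95% intervals from limma. The filled red point, MIR159C in SC-RTL1 against VC-RTL1 at 2.18, is the only call at an adjusted p of 0.05 in these fits, which have no replicate block. The MIR159 genes lie to the right of 0 in both SC-RTL1 comparisons.

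The ratio of the families within a library does not depend on how libraries are scaled. Summed MIR159 signal was 4.23 and 1.51 times the summed MIR319 signal in Col-0, 2.07 and 0.739 times in VC-RTL1, 3.47 and 2.90 times in SC-RTL1, 8.15 and 1.90 times in WT FTL, and 5.28 and 3.84 times in nrpd1a-3 FTL pollen. Both SC-RTL1 ratios were above both VC-RTL1 ratios and lay within the range of Col-0. VC-RTL1 replicate 2 was the only library in which MIR319 exceeded MIR159, at 1900 against 1404. With 2 libraries a group an exact permutation test of these ratios cannot go below p = 0.333 (two-sided).

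**Figure D4:**
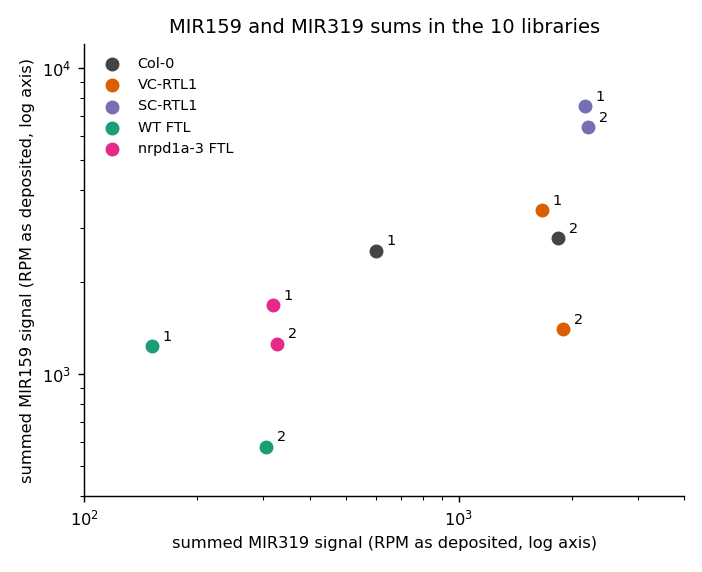
Summed MIR159 signal (vertical axis) against summed MIR319 signal (horizontal axis), both RPM as deposited on log axes, in the 10 libraries, with the replicate number beside each point. Sorted libraries lie at the lower left, with MIR319 sums of 151 to 328 against 599 to 2209 in unsorted pollen, and SC-RTL1 at the upper right.

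In sorted pollen the mutant allele of Pol IV was compared with the wild type over 7334 loci in the 4 sorted libraries. No member was called without a replicate block. The log2 differences were 0.84 for MIR159A (SE 0.75, limma adjusted p = 0.434), 0.33 for MIR159B (SE 0.82, adjusted p = 0.803) and -0.03 for MIR159C (SE 0.84, adjusted p = 0.984). For MIR319A, MIR319B and MIR319C they were 0.14, 0.65 and 1.24 (SE 0.64, 0.74 and 0.58, limma adjusted p = 0.905, 0.558 and 0.127). Among the 6, 0 were called, also at an unadjusted p under the threshold, whereas 21.7% of all loci were called reduced and 0.0682% raised. Unadjusted, 3007 of the 7334 loci were reduced and 158 raised under that threshold. The median over the members was 0.49 and over all loci -0.97. The 106 other microRNA genes tested had a median of -0.24, with 0 raised and 0 reduced. Groups did not overlap for MIR159A and MIR319C, both higher in nrpd1a-3 FTL, as for 17.1% of loci and 6.25% of 112 microRNA genes. Both kinds of grain came from heterozygous plants and were sorted at the same time. Nothing says that a replicate number marks 1 sort, but same-numbered sorted libraries deviated together (r of 0.57 over 7334 loci). With the number as a block MIR319C was called raised at 1.24 (SE 0.47, limma adjusted p = 0.0170), beside 9.33% of all loci. MIR159B, MIR319A and MIR159C each turned sign under 2 of 5 other scalings. Intervals were wide, from -0.83 to 2.51 for MIR159A and from -0.04 to 2.53 for MIR319C.

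Sorted and unsorted wild-type pollen were set side by side without a test, since sorting, the reporter and the parent plants cannot be told apart. Both WT FTL libraries lay below both Col-0 libraries for 6 of 6 genes, as they did for 52.9% of 10088 loci and 63.9% of 133 microRNA genes. All 4 sorted libraries lay below all 6 unsorted ones for 2 of 6 genes, as for 28.7% of loci and 53.4% of microRNA genes. As shares of microRNA signal the sums were closer, at 0.0958% to 0.446% in unsorted and 0.162% to 0.460% in sorted pollen for MIR159, and 0.0644% to 0.157% and 0.0216% to 0.120% for MIR319, so that the ranges overlapped. Leaf marker fragments were below the unsorted range in 3 of the 4 sorted libraries. They were lowest in nrpd1a-3 FTL replicate 2 (14.1) and WT FTL replicate 2 (21.4) and higher in replicate 1 of both groups (206 and 104). Their part in the levels of MIR159 and MIR319 was not tested.

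By the likeness of log2(signal + 1) over the 10 libraries, the summed MIR319 signal was closest to MIR166a, MIR166b and MIR166f among 127 other microRNA genes, with Pearson r of 0.989, 0.988 and 0.986 (Spearman rho 0.939 for each). The MIR166 genes carry one mature RNA and share its reads, so they are not separate evidence. Within the 6 unsorted libraries r was 0.956, 0.962 and 0.961, and without the 2 libraries farthest from the median of the MIR166 gene it was 0.987, 0.989 and 0.988. MIR166a signal ranged from 422 to 7583. The summed MIR159 signal was closest to MIR398b and MIR398c, which also share reads (r of 0.905 for both, rho 0.903), and to MIR830 (r of 0.867, rho 0.891). Within the unsorted libraries these r were 0.873, 0.873 and 0.972, and without the 2 farthest libraries 0.808, 0.808 and 0.875. The MIR159 and MIR319 sums were less alike, with r of 0.741 over 10 libraries and 0.361 over the 6 unsorted ones. All these values share the scaling of their library, and the points fall into sorted and unsorted sets.

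The known targets were looked at for complementary sites and for small RNAs of their own. In TAIR10.1 each of 8 MYB genes holds a site for miR159a and each of 5 TCP genes a site for miR319a, all within a coding exon. A few sites are printed as the mRNA reads, 5′ to 3′, with mismatches to the microRNA in capitals, because they show how pairing differs among targets.
MYB33: uggagcucccuucaUuccaaU
MYB101: uagagcuuccuucaaAccaaa
MYB81: uCgaguucccuucaUuccaaU
DUO1: uggagcuccAuucgauccaaa
TCP4: gAgggguCcccuucaguccag
They lie at chr5:1839579-1839599 in MYB33, chr2:13783168-13783188 in MYB101, chr2:11506466-11506486 in MYB81, chr3:22343375-22343395 in DUO1 and chr3:5063300-5063320 in TCP4. Sites were scored by 1 point for a mismatch and 0.5 for a G:U pair over 21 positions. The MYB sites ranged from 1.5 in MYB101 to 3.5, and the TCP sites from 3.5 in TCP10 to 4.5. The best match of miR319a in MYB33, MYB65 and MYB104 scored 3, better than in any of the 5 TCP genes. This score alone therefore does not separate the targets of the families. A site of miR159a with a score of at most 4 occurs in 0.29% of 31346 genes, and one of miR319a with at most 5 in 0.836%. A match of letters is a description and not a measured cleavage.

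Small RNAs on the target genes were few. MYB101 and MYB81 had most, with 843 and 474 hit-weighted reads over the 10 libraries. MYB101 signal was 28.0 and 60.7 in Col-0, 82.9 and 60.1 in VC-RTL1, 99.7 and 54.0 in SC-RTL1, 44.7 and 43.4 in WT FTL, and 72.0 and 127 in nrpd1a-3 FTL pollen, so that every group of unsorted pollen overlapped the others. MYB81 had 39.6 and 62.9 in Col-0, 41.8 and 44.8 in VC-RTL1, 88.6 and 80.3 in SC-RTL1, 13.7 and 7.23 in WT FTL, and 18.1 and 7.37 in nrpd1a-3 FTL pollen. Of its 474 reads 441 were 21 or 22 nt long, against 249.5 of 843 on MYB101. DUO1 had 51 reads in all, 8 and 4 in Col-0, 16 and 3 in VC-RTL1, 2 and 0 in SC-RTL1, 3 and 7 in WT FTL, and 3 and 5 in nrpd1a-3 FTL pollen, too few to test.

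Of the 13 targets, 4 passed the filter in unsorted pollen (MYB81, MYB101, MYB97 and TCP4) and 2 in sorted pollen (MYB81 and MYB101), and 0 were called by limma in any of the 4 comparisons without a replicate block. With it, MYB101 was called raised in sorted pollen at 1.10 (limma adjusted p = 0.0344), beside 9.33% of all loci. At an unadjusted p under the threshold there were 0 in VC-RTL1 and 2 in SC-RTL1 against Col-0, 1 between the constructs and 0 in sorted pollen. Of all 11585 loci, 1400 were raised and 788 reduced at that level in VC-RTL1, and 1695 and 870 in SC-RTL1, against Col-0. Between the constructs these were 1134 and 1562, and in sorted pollen 158 and 3007 of 7334. MYB81 came nearest, at 0.95 in SC-RTL1 against VC-RTL1 (SE 0.28, limma adjusted p = 0.105). MYB97 was at 1.33 in SC-RTL1 against Col-0 (SE 0.48, limma adjusted p = 0.164) and TCP4 at -0.98 in SC-RTL1 against VC-RTL1 (SE 0.50, limma adjusted p = 0.283). The other 9 (MYB33, MYB65, MYB104, MYB120, DUO1, TCP2, TCP3, TCP10 and TCP24) stayed below the filter in both fits.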

How the data were processed

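As deposited, signal stands for small RNA reads per gene and read length in 2 libraries of each of 5 groups, mapped with Bowtie to TAIR10 as perfect matches, split evenly over all genomic matches and given as RPM by the authors. The stated total is that of length-filtered, perfectly mapped reads, but the values of a library sum to 3.74e+06 to 8.67e+06, more than that total would give. Depth was recovered as signal divided by the value of 1 uniquely mapping read. Weighted reads are not whole, so no binomial interval is given for shares, and floors cover counting error only.

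Lengths of 18 to 30 nt were summed, since longer RNAs were listed in replicate 1 of the sorted groups alone, and loci with a mean of 12 reads per library were tested on log2(signal + 1) with limma 3.58.1 in R 4.3.3 (empirical Bayes, variance trend, Benjamini-Hochberg). Residual degrees of freedom were 3 in the unsorted and 2 in the sorted fit, with priors of 5.12 and 7.72. The procedure was tested on simulated data. Other steps used Python 3.11.15 and pandas 2.3.3. Hits, coordinates and sequences are from RefSeq assembly TAIR10.1. The deposited values carry gene IDs and no coordinates, so the builds were not compared. Named are the 6 genes, 13 targets and, for each family, the 3 other microRNA genes with the highest Pearson r. Members, target and marker lists were chosen with earlier results of these data known. DUO1 is both a target and a sperm cell marker. Alternatives were other pseudocounts (0.1 and 5), no filter, 5 scalings, 21 nt alone, no variance trend, limma-voom, a replicate block, fits of 4 libraries and leaving out each library.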

Additional observations from a re-analysis of the deposited data

Results flagged for a closer look

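MIR159C was higher in SC-RTL1 than in VC-RTL1 pollen by 2.18 on the log2 scale, a difference between the constructs that passed the test of the difference itself (SE 0.39, limma adjusted p = 0.0246, both SC-RTL1 libraries above both VC-RTL1 libraries). Its reads are almost wholly of 18 and 19 nt, lengths at which MIR159A, MIR159B and MIR159C carry the same sequence. MIR159A and MIR159B differed by 1.69 and 1.49 in the same comparison (limma adjusted p = 0.0760 and 0.0652). The part of each hairpin in the short reads was not tested.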

How the results depend on the processing

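The call of MIR159C in SC-RTL1 against VC-RTL1 held in 12 of the 18 alternatives that gave it a value, at log2 differences of 1.68 to 2.22, and over all 18 these were 1.52 to 2.63. It was lost when scaled to mapped reads (limma adjusted p = 0.379), without a variance trend (0.0508) and without any 1 library of these groups. The number of the 6 genes called raised there was 2 when scaled to summed signal, to microRNA genes or to the median ratio. Over all loci 62, 101 and 150 of 11585 were raised in these fits. It was 3 without structural RNAs and with the 4 libraries of the comparison alone, beside 130 of 11585 and 309 of 11278 loci. With mapped reads and without a trend it was 0, beside 11 and 81 of 11585 loci. On leaving out a library the median of the 6 genes ranged from 0.80 to 1.26 between the constructs. Against Col-0 it ranged from -0.26 to 0.87 in VC-RTL1 and from 0.72 to 1.70 in SC-RTL1. Against Col-0 the lowest came without Col-0 replicate 1 and the highest without Col-0 replicate 2. The number called also changed between these fits. Of the targets 1, MYB81, was called between the constructs with 4 libraries, at a log2 difference of 0.95. Without Col-0 replicate 2 MYB81 was at 1.07 in SC-RTL1 against Col-0. The cause was not tested.

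A replicate block left the calls among the 6 genes as they were in the unsorted fits, and in sorted pollen it called 1 of them, MIR319C (limma adjusted p = 0.0170), and 1 target, MYB101, with 684 loci raised and 3532 reduced. Deviations of same-numbered libraries gave r of 0.04, 0.09 and 0.0005 among the unsorted groups and 0.57 between the sorted ones, and nothing states that a number is shared, though both sorted populations were sorted together.

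Signs changed for small differences that did not pass. In VC-RTL1 against Col-0, MIR159B was -0.20 with summed signal, -0.32 with microRNA genes, -0.075 with the median ratio, -0.25 without structural RNAs, -0.11 with mapped reads and -0.061 by limma-voom. MIR319C in SC-RTL1 against Col-0 was -0.041 with microRNA genes and -0.053 with mapped reads. Between the constructs MIR319A was -0.085 with mapped reads, and MIR319B -0.41 with summed signal, -0.35 with microRNA genes, -0.23 without structural RNAs and -0.58 with mapped reads. In sorted pollen, with summed signal and with mapped reads, MIR159B was -0.18 and -0.19 and MIR319A -0.37 and -0.37, and MIR159C was 0.030 with a pseudocount of 5, 0.23 with microRNA genes and 1.11 with the median ratio. On leaving out a library the ranges were, in VC-RTL1 against Col-0, -1.02 to 0.36 for MIR159A, -0.46 to 0.50 for MIR159B and -0.34 to 1.52 for MIR319A. MIR319C ranged from -0.0057 to 1.48 in SC-RTL1 against Col-0 and from -0.37 to 0.24 between the constructs. In sorted pollen the ranges were -0.59 to 1.25 for MIR159B, -1.26 to 1.20 for MIR159C, -0.42 to 0.71 for MIR319A and -0.18 to 1.48 for MIR319B.

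Scaling to summed signal moved the median of all loci in SC-RTL1 against Col-0 from 0.08 to -0.63 and that of the 6 genes from 1.27 to 0.54. Over all settings the loci called raised and reduced numbered 1 to 755 and 0 to 179 in VC-RTL1 and 0 to 1340 and 1 to 2227 in SC-RTL1 against Col-0, 0 to 337 and 0 to 1529 between the constructs, and 0 to 684 and 0 to 3532 in sorted pollen. Leaving MIR845a out raised the share of the 6 genes in microRNA signal to 0.610% in Col-0, 0.538% in VC-RTL1, 0.863% in SC-RTL1, 0.413% in WT FTL, then 0.636% in nrpd1a-3 FTL. With 2 libraries a group, MIR159C, the MIR319 genes of sorted pollen and most targets rest on few reads, and differences under the intervals given were not detectable.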
